A study of Homo sapiens with 2 samples.

Results

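Imprinted genes are expressed mainly from the copy inherited from 1 parent. The 34 genes described here, of 64439 in the annotation, lie at 18 imprinted loci and were named from the known human imprinted clusters, not from peak heights. Their peaks were taken as all peaks touching a window of 3 kb on either side of any annotated transcription start site (TSS), in GENCODE release 44 on GRCh37 (hg19). By this rule, 82 DMSO peaks and 113 MAK683 peaks belonged to the 34 genes.

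Open chromatin was profiled by ATAC-seq, in which the transposase Tn5 tags accessible DNA, in G401, an established malignant rhabdoid tumor line that lacks the chromatin remodeler subunit SMARCB1. The control library was made from cells given the solvent DMSO, and the treated library from cells given MAK683 at 3 µM. Both were collected after 3 days, and there was 1 library per group, so the variation between cultures is unknown and no test was run. MAK683 binds EED, the subunit with which Polycomb repressive complex PRC2 reads and spreads the repressive mark H3K27me3. *SMARCB1* had no peak near any of its start sites in either library.

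The parental copies of an imprinted locus differ at a germline differentially methylated region (DMR), where DNA methylation set in the egg or the sperm is kept in the embryo. At most loci the methylated copy is the maternal one, and the DMR is the promoter of a gene that the father's copy expresses. At *H19*/*IGF2* and at *DLK1*/*MEG3* the methylated copy is instead the paternal one, and the DMR lies between genes. H3K27me3 also marks parts of several imprinted clusters, though the mark was not read in these libraries. An ATAC-seq peak list does not tell the copies apart, so every height below is the sum over both.

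Peak height was the deposited pileup, in tags stacked at the summit, divided by the 16598348 tags kept in the DMSO library or the 18265284 kept in the MAK683 library and multiplied by 1000000 (tags per 1000000, RPM). A single tag was worth 0.0602 RPM in DMSO and 0.0547 RPM in MAK683. The lowest called peak held 6 tags in both libraries, and a gene without a peak was set to 0.361 RPM, the larger of both lowest heights, when a log2 ratio was formed. No local background entered the peak calling, so the calling limit was the same everywhere in a library. Ratios are MAK683 over DMSO for the tallest peak of each gene. Their 95% exact conditional intervals cover counting error only, and neither variation between cultures nor the choice of the tallest peak is in them.

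Of the 34 genes, 25 had a peak in DMSO and 29 in MAK683, and the 25 were all among the 29. Over all annotated genes, 43.9% had a peak in DMSO and 50.8% in MAK683, and over protein-coding genes 76.3% and 82.5%. The 4 genes with a peak in MAK683 only were *DLK1*, *MEG3*, *MAGEL2* and *GRB10*, or 4 of the 29 genes with a MAK683 peak, against 20.2% of all genes with such a peak and 9.45% of the protein-coding ones. No imprinted gene had a peak in DMSO only, against 6.24% of all genes with a peak and 1.84% of the protein-coding ones. *MKRN3*, *NDN*, *NNAT*, *DIRAS3* and *AIRN* had no peak in either library.

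Heights were at least 2-fold higher in MAK683 at 4 genes, *DLK1*, *RTL1*, *MEG8* and *MAGEL2*, against 3.96% of all 34912 genes with a peak and 3.25% of the protein-coding ones. At *DLK1* and *MAGEL2*, which had no DMSO peak, this rests on the lowest called height, and the log2 ratio of each was 0.35 when peaks needed a −log10 q of at least 5. None was at least 2-fold lower, against 5.53% and 5.21%. The median log2 ratio of the 29 genes was -0.04, and 13 were higher and 16 lower in MAK683. The side of 0 on which the median fell depended on the scaling, with 0.09 and 16 genes higher without depth scaling and 0.01 and 15 higher by fold enrichment. Over all genes with a peak the median was -0.34, and 30.8% were higher, or 21.5% of the protein-coding ones. Genes called in both libraries had a median of -0.19 over 25 imprinted genes and of -0.44 over 26107 genes. Among those of the 26107 whose DMSO height lay in the range of the imprinted genes, 8 to 42 tags, it was -0.39. Without the 4 genes of the *DLK1*/*MEG3* locus, a split chosen after the values were seen, the median was -0.19 and 9 of 25 genes were higher.

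**Figure D1:**
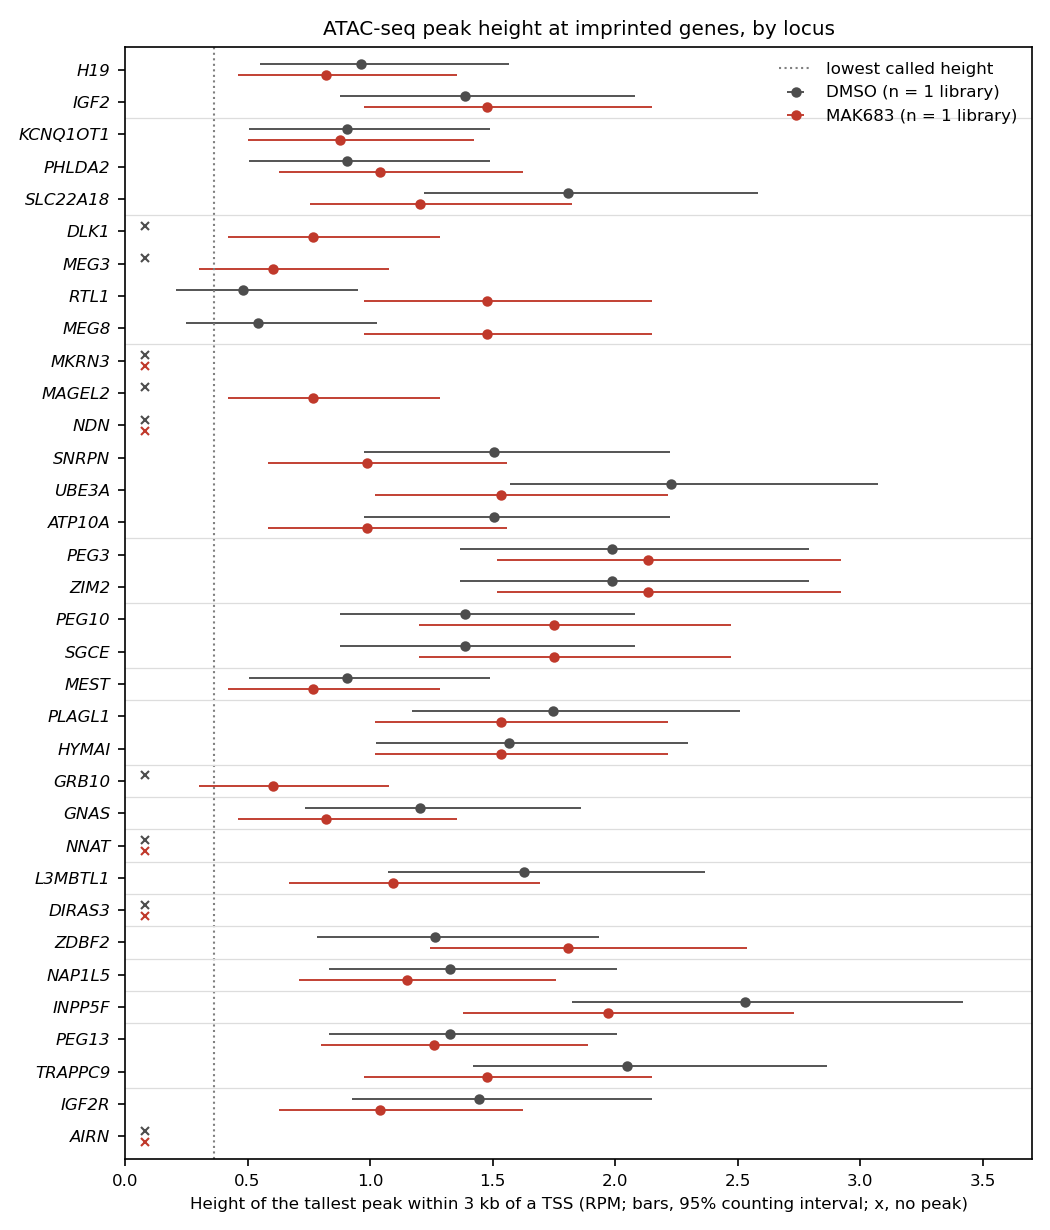
Height of the tallest peak (x axis, RPM) of each of the 34 imprinted genes (y axis, grouped by locus) in the DMSO and MAK683 libraries, with bars for the 95% counting interval and crosses where no peak was called. The intervals of the libraries overlap at every gene with a peak in both except *RTL1*, at 0.482 RPM in DMSO and 1.48 RPM in MAK683, whose window leaves out the 9-tag DMSO peak counted for *MEG8*.

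The *DLK1*/*MEG3* locus at 14q32 held 3 of the 4 genes past 2-fold. It carries *DLK1*, which encodes a membrane protein of the Notch ligand family that restrains differentiation, and *RTL1*, a retrotransposon-derived gene needed in the placenta, both expressed from the paternal copy. The maternal copy expresses the noncoding RNAs *MEG3* and *MEG8*. *RTL1* had a peak of 8 tags (0.482 RPM) in DMSO and one of 27 tags (1.48 RPM) in MAK683, a log2 ratio of 1.62 (0.44 to 2.97). *MEG8*, which shares the MAK683 peak with *RTL1* because their starts lie close together on opposite strands, went from 9 tags (0.542 RPM) to 27, a log2 ratio of 1.45 (0.32 to 2.72), which was 0.60 with a TSS window of 1 kb. These were the only imprinted genes whose interval lay above 0, and they rest on a single stretch of chromatin. The 9-tag DMSO peak of that stretch lay just outside the *RTL1* window, so over the whole stretch the ratio is the one given for *MEG8*. That stretch, chr14:101366268-101369572, was called as 1 peak in MAK683 and lies in introns of *RTL1* and *MEG8*, with its summit 1292 bp into the *RTL1* transcript.

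The bases around this summit are shown because *RTL1*, by its own window, had the highest log2 ratio of the 34 genes. They were chosen after the values were seen. In all sequences printed here, capitals mark GGNGGCAG, the core of the CTCF sites in the *H19* control region, or TGCCGC, the hexamer that the imprint-protecting factor ZFP57 binds when it is methylated. On the other strand these read CTGCCNCC and, for the hexamer, GCGGCA. Neither was found in this window of 300 bases, which holds 4 CpG sites. The window is chr14:101368617-101368916, plus strand of GRCh37.
RTL1 intron: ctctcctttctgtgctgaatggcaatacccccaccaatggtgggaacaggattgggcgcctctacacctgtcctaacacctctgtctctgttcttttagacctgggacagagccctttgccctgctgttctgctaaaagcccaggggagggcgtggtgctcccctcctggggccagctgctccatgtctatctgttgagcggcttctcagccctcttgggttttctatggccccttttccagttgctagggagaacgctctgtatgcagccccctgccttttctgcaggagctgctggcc

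*DLK1* had no peak in DMSO and 4 in MAK683, all between 12 and 14 tags. The tallest, chr14:101191314-101192528, had 14 tags (0.766 RPM). Its summit lay in an untranslated part of the gene, 113 bp downstream of a *DLK1* start site and 1074 bp upstream of the main one. Against the lowest called height the log2 ratio of this peak was 1.08. *MEG3* likewise went from no peak to 9, of 7 to 11 tags each. The tallest, chr14:101245064-101245615, had 11 tags (0.602 RPM) and lay 606 bp upstream of the start of the canonical transcript. The log2 ratio of *MEG3* was 0.74 against the lowest called height. That ratio was -0.000561 when peaks needed a −log10 q of at least 5. At the dense group of starts further along the gene, the closest peak on the upstream side was 1746 bp away with 8 tags, and a start inside the gene had a peak of 8 tags 3 bp away. The height at this locus was therefore spread over many low peaks, with none of the *MEG3* peaks reaching the level of the *RTL1* peak.

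*DIO3*, the gene that closes the domain, encodes a thyroid hormone inactivating deiodinase. From just before *DLK1* to just past *DIO3*, the DMSO library had 7 peaks, of at most 9 tags. The MAK683 library had 53 in the same stretch, of 7 to 27 tags with a median of 10. Counted from the main *DLK1* start site, the MAK683 summits lay between -2.644 and 836.617 kb. In DMSO, 6 of the 7 fell beside *RTL1* or *DIO3*. In MAK683 they ran from *DLK1* through *MEG3* to *RTL1*, were absent over most of the body of *MEG8*, and appeared again before *DIO3*. Regions around the locus with a peak in both libraries did not move in the same way. Within 1 Mb of the locus and more than 10 kb from its start sites, 112 such regions had a median log2 ratio of -0.27, against 1.27 for the 4 genes. Of the 4 genes, *DLK1* and *MEG3* had no DMSO peak and rest on the lowest called height, which shared regions do not. The sequence around the locus includes *DIO3*, which is imprinted as well. Peak numbers in that sequence were 199 in DMSO and 265 in MAK683, a ratio of 1.33, beside 1.41 for the whole libraries.

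**Figure D2:**
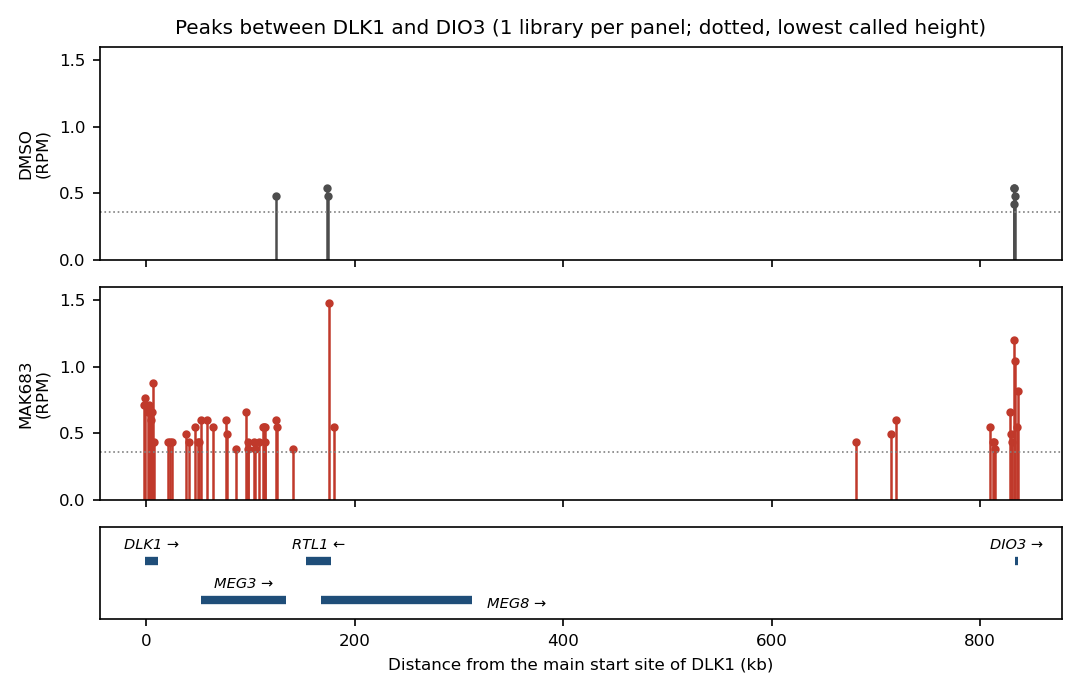
Every peak from just before *DLK1* to just past *DIO3*, by distance from the main *DLK1* start site (x axis, kb) and height (y axis, RPM). The DMSO library is at the top and the MAK683 library in the middle, with the gene spans below. There were 7 peaks in DMSO and 53 in MAK683, and the tallest, at 1.48 RPM, had its summit 1292 bp into the *RTL1* transcript.

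The Prader-Willi/Angelman locus at 15q11-q13 gave mixed values. *MAGEL2*, which encodes a regulator of protein sorting and ubiquitination and is expressed from the paternal copy, had no peak in DMSO and 4 in MAK683. The tallest, chr15:23892644-23893062, held 14 tags (0.766 RPM), a log2 ratio of 1.08 against the lowest called height. Its neighbours *MKRN3*, a zinc finger gene tied to the timing of puberty, and *NDN*, a relative of *MAGEL2* that restrains growth, had no peak in either library. Within the cluster of paternally expressed intronless genes, *MAGEL2* alone was called.

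The *MAGEL2* summit lay 215 bp downstream of its start. The 241 bases printed are the coding part of the window around it, read on the plus strand of GRCh37 at chr15:23892649-23892889, and the gene runs on the minus strand, so that its start codon is read backwards at the right end. They were chosen after the values were seen, and hold 17 CpG sites and neither set of letters.
MAGEL2 coding part: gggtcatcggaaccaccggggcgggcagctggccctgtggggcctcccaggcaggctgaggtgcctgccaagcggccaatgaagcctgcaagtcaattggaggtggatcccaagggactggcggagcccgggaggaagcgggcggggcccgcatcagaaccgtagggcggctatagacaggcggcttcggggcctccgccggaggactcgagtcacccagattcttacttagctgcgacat

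*SNRPN*, whose promoter is the DMR of the locus and which encodes a spliceosome protein, had 25 tags (1.51 RPM) in DMSO and 18 (0.985 RPM) in MAK683, a log2 ratio of -0.61 (-1.57 to 0.32). *UBE3A*, the ubiquitin ligase lost in Angelman syndrome, was the second tallest of the 34 genes in DMSO. Its peak at chr15:25682965-25685123 had 37 tags (2.23 RPM), against 28 tags (1.53 RPM) in MAK683, a log2 ratio of -0.54 (-1.30 to 0.21). *ATP10A*, a phospholipid flippase gene, had 25 tags in DMSO and 18 in MAK683 at different places, a log2 ratio of -0.61 (-1.57 to 0.32). At the place of its tallest DMSO peak, chr15:26028722-26029674, the 25 tags stood against 13, a log2 ratio of -1.08 (-2.17 to -0.06). Apart from *MAGEL2*, the genes of this locus that had a peak were thus lower in MAK683, and only that stretch of *ATP10A* by more than its counting error. Of the 9 regions of the locus with a peak in both libraries, 8 were lower in MAK683, with a median of -0.54, beside a median of -0.43 in the sequence around the locus.

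At *H19*/*IGF2* on 11p15.5, heights changed little. *H19*, a growth-restraining noncoding RNA of the maternal copy, had 16 tags (0.964 RPM) in DMSO and 15 (0.821 RPM) in MAK683, a log2 ratio of -0.23 (-1.35 to 0.88), at different places. Between its promoter and *IGF2* lies the control region that CTCF binds on the unmethylated maternal copy. Peaks upstream of the *H19* promoter stood at chr11:2023730-2023992, with 13 tags in DMSO and 12 in MAK683, and at chr11:2024105-2024420, with 10 and 15 tags. Their log2 ratios were -0.25 and 0.45, and both intervals included 0, so neither moved beyond its counting error. Nearer to the promoter, at chr11:2019537-2020373, the height was 16 tags in DMSO and 8 in MAK683, a log2 ratio of -1.14 (-2.57 to 0.17).

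The windows of 300 bases around both upstream summits are printed because they show the repeat structure of this control region. Each holds 1 match to the CTCF core and 2 to the ZFP57 hexamer, 1 of them inside the CTCF match, and the same letters follow on either side of that match. They were chosen after the values were seen and are read on the plus strand of GRCh37, at chr11:2023747-2024046 and chr11:2024077-2024376.
H19 upstream 1: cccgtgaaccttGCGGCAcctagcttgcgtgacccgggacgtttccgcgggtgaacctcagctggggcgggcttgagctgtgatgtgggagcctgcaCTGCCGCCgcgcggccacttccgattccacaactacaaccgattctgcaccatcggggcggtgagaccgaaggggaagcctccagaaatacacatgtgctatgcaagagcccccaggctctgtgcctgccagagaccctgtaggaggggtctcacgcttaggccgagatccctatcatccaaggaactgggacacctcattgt
H19 upstream 2: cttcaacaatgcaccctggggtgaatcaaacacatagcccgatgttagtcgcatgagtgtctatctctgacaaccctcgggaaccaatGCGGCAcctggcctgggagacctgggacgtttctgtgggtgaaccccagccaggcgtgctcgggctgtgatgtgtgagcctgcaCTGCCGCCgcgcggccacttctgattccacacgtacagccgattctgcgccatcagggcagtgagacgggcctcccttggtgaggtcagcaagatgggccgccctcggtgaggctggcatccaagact

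*IGF2*, the fetal growth factor of the paternal copy, had 23 tags (1.39 RPM) in DMSO and 27 (1.48 RPM) in MAK683, a log2 ratio of 0.09 (-0.76 to 0.96). While its tallest peak stayed in place, the number of peaks in its windows was 5 in DMSO and 13 in MAK683. Of the 17 regions of the locus, 10 had a peak in MAK683 only, at 8 to 14 tags, and none in DMSO only. That share, 58.8%, is read against 45.9% of all 199510 regions.

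The neighbouring *KCNQ1OT1* domain is ruled by a noncoding RNA of the paternal copy whose promoter is the DMR. *KCNQ1OT1* had 15 tags (0.904 RPM) in DMSO and 16 (0.876 RPM) in MAK683, a log2 ratio of -0.04 (-1.16 to 1.07). *PHLDA2*, a maternally expressed gene that limits placental growth, had 15 tags (0.904 RPM) and 19 (1.04 RPM), a log2 ratio of 0.20 (-0.85 to 1.28). *SLC22A18*, a maternally expressed transporter gene, had 30 tags (1.81 RPM) and 22 (1.20 RPM), a log2 ratio of -0.59 (-1.45 to 0.26). No interval of these genes excluded 0. Of the 23 regions of these genes, 7 had a peak in DMSO only and 7 in MAK683 only.

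*GRB10* at 7p12 encodes an adaptor that dampens insulin and growth factor signalling, from the maternal copy in most tissues and from the paternal one in neurons. It had no peak in DMSO and 10 in MAK683, all between 8 and 11 tags. The tallest, chr7:50670969-50671957, held 11 tags (0.602 RPM) in an intron, a log2 ratio of 0.74 against the lowest called height. That ratio was -0.0006 when peaks needed a −log10 q of at least 5. No peak of either library touched the windows of the starts at the DMR. The surrounding sequence moved with the gene. Within 1 Mb and more than 10 kb from its start sites, the DMSO library had 6 peaks and the MAK683 library 87, a ratio of 14.5, the highest of the 18 loci and above the 1.41 of the whole libraries. The 6 regions shared there had a median log2 ratio of 0.42. Whether the *GRB10* peaks follow from that neighbourhood was not tested.

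The window of 300 bases around the tallest *GRB10* summit, chr7:50671006-50671305 on the plus strand of GRCh37, holds 6 CpG sites and neither set of letters. It is shown as that of the only gene with a promoter at a germline DMR that gained its peaks in MAK683, although the summit itself is intronic.
GRB10 intron: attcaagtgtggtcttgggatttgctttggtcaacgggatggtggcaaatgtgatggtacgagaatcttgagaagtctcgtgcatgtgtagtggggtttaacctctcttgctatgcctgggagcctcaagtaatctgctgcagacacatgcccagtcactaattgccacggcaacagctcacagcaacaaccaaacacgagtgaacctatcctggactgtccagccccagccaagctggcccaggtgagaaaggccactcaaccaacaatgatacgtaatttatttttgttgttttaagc

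The paternally expressed genes with a germline DMR at their promoter made up most of the rest, and none passed 2-fold. *PEG3*, a zinc finger gene that controls growth and maternal behaviour, and *ZIM2* share their start and had 33 tags (1.99 RPM) in DMSO and 39 (2.14 RPM) in MAK683, a log2 ratio of 0.10 (-0.60 to 0.82). The *PEG3* peak was the tallest of the 34 genes in MAK683. *PEG10*, a retrotransposon-derived placental gene, and *SGCE*, which encodes the sarcoglycan lost in myoclonus dystonia, are read outwards from a shared promoter of 23 tags (1.39 RPM) in DMSO and 32 (1.75 RPM) in MAK683. The log2 ratio there was 0.34 (-0.48 to 1.18). Both promoters held their height while the regions around them had medians of -0.36 and -0.40, though their intervals include these medians.

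The *PEG3* window is shown because it packs the letters of both factors most densely among the sequences printed, with 2 matches to the CTCF core and 4 to the ZFP57 hexamer, 1 of which lies inside a CTCF match. It was chosen after the values were seen and is chr19:57350132-57350431, plus strand of GRCh37, in an intron of *PEG3*.
PEG3 intron: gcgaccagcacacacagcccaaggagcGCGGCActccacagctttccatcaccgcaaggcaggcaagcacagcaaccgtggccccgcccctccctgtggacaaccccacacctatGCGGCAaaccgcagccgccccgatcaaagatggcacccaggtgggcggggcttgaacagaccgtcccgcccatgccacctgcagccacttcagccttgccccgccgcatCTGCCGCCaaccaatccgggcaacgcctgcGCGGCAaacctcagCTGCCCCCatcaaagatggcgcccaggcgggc

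*MEST*, which encodes a hydrolase of mesodermal tissue, had 15 tags (0.904 RPM) in DMSO and 14 (0.766 RPM) in MAK683, a log2 ratio of -0.24 (-1.40 to 0.91). *PLAGL1*, a zinc finger factor that restrains proliferation, had 29 tags (1.75 RPM) and 28 (1.53 RPM), a log2 ratio of -0.19 (-0.99 to 0.61). The 29 tags stood in chr6:144383614-144386152, with the summit 55879 bp from the canonical start. MAK683 had 28 tags both there and by the canonical start. *HYMAI*, a noncoding RNA that starts in the first intron of *PLAGL1*, had 26 tags (1.57 RPM) and the 28 by that canonical start, a log2 ratio of -0.03 (-0.85 to 0.80). In each case the change was smaller than the counting error. *L3MBTL1*, which encodes a reader of methylated histones, had 27 tags (1.63 RPM) and 20 (1.09 RPM), a log2 ratio of -0.57 (-1.48 to 0.32). *NAP1L5*, an intronless gene inside *HERC3*, had 22 tags (1.33 RPM) and 21 (1.15 RPM), a log2 ratio of -0.21 (-1.14 to 0.73). *ZDBF2*, a zinc finger gene of the paternal copy whose promoter is not the germline DMR itself, had 21 tags (1.27 RPM) and 33 (1.81 RPM), a log2 ratio of 0.51 (-0.32 to 1.38). Among those of the 34 genes called in both libraries outside the *DLK1*/*MEG3* locus, it had the highest ratio, and its interval still includes 0.

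*INPP5F*, a phosphoinositide phosphatase gene with an imprinted isoform, was the tallest of the 34 genes in DMSO. Its peak at chr10:121484414-121486385 had 42 tags (2.53 RPM) in DMSO and 36 (1.97 RPM) in MAK683, a log2 ratio of -0.36 (-1.04 to 0.32). It stood at the main start, whereas no peak of either library touched the windows of the downstream starts, which serve the imprinted isoform. A start between them, at chr10:121510172-121510494, had 16 tags in both, a log2 ratio of -0.14 (-1.23 to 0.96). Around the main start, 5 low peaks of 7 to 12 tags were called in DMSO only, so that the number of peaks was 7 in DMSO and 2 in MAK683. These 5 of its 7 regions, 71.4%, are read against 25.1% of all regions in DMSO only. In the sequence around *INPP5F* 44.6% of regions were in DMSO only, with 126 peaks in DMSO and 102 in MAK683. The window around the main summit is chr10:121485213-121485512 on the plus strand of GRCh37. It is shown because this was the tallest summit of the 34 genes in DMSO. The window has 28 CpG sites, 1 match to the CTCF core and a GC content of 73.0%.
INPP5F start: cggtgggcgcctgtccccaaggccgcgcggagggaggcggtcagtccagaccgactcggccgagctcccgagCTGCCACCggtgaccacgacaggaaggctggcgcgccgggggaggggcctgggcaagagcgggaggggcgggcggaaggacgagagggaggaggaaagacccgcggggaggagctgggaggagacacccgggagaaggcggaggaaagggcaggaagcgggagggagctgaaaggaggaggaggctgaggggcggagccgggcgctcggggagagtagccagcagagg

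*GNAS* at 20q13, which encodes the stimulatory G protein subunit and its alternative products, is imprinted by promoter. Its tallest peak, at chr20:57463308-57464594 at the exon A/B promoter used on the paternal copy, had 20 tags (1.20 RPM) in DMSO and 15 (0.821 RPM) in MAK683, a log2 ratio of -0.55 (-1.62 to 0.49). The next peak, at chr20:57465306-57467356 by the promoter of the main transcript, had 17 and 14 tags, a log2 ratio of -0.42 (-1.55 to 0.69). At the most upstream start, which serves the maternally expressed NESP55 transcript, no peak was called in DMSO and a peak of 12 tags in MAK683, at chr20:57414318-57415260 with its summit 92 bp upstream of the start. None of these differences at *GNAS* exceeded its counting error where both libraries had a peak. Within 1 Mb of *GNAS*, 31 peaks in DMSO stood against 127 in MAK683, a ratio of 4.10.

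*IGF2R*, the receptor that clears IGF2, had 24 tags (1.45 RPM) in DMSO and 19 (1.04 RPM) in MAK683, a log2 ratio of -0.48 (-1.42 to 0.45). *AIRN*, the noncoding RNA antisense to it, had no peak. The sequence around this locus held 67 peaks in DMSO and 258 in MAK683, a ratio of 3.85, without a gain at the *IGF2R* promoter. *TRAPPC9*, a trafficking complex gene at 8q24, was the third tallest of the 34 genes in DMSO. It had 34 tags (2.05 RPM) there against 27 (1.48 RPM) in MAK683, a log2 ratio of -0.47 (-1.26 to 0.30). *PEG13*, the noncoding RNA inside it, had 22 tags (1.33 RPM) and 23 (1.26 RPM), a log2 ratio of -0.07 (-0.98 to 0.84).

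**Figure D3:**
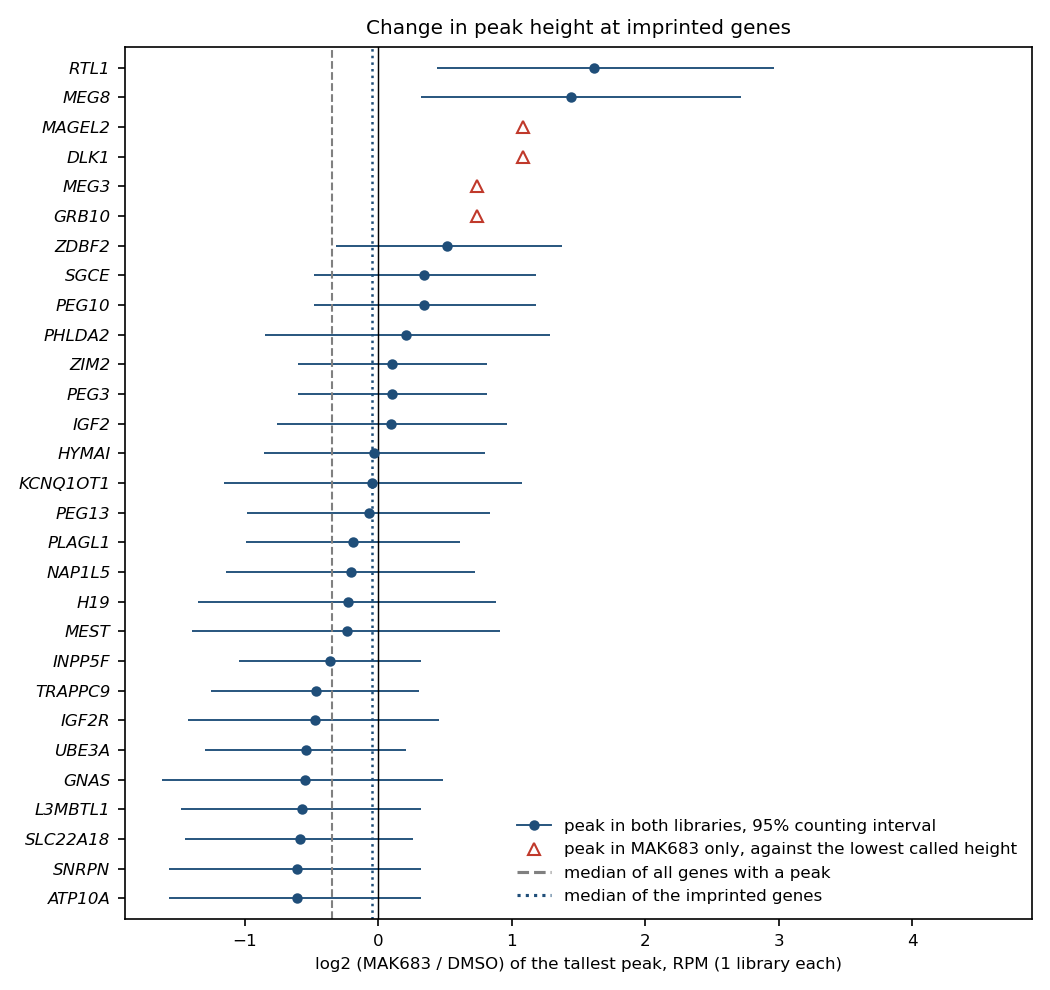
Log2 ratio of MAK683 over DMSO (x axis) for the tallest peak of the 29 imprinted genes with a peak (y axis, sorted), with 95% counting intervals for genes called in both libraries and open triangles for those called in MAK683 only. The median of these genes, -0.04, lies to the right of the median of all genes, -0.34, and only *RTL1* and *MEG8* have intervals above 0.

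Sorted by the copy that is expressed, 17 of 22 paternally expressed genes had a peak, with a median log2 ratio of 0.09, and 9 of the 17 were higher in MAK683. All 7 maternally expressed genes had a peak, with a median of -0.23. The 5 genes imprinted by isoform or tissue had a median of -0.47. Sorted by promoter, 15 of 18 genes with a promoter at a germline DMR had a peak, with a median of -0.07 and none past 2-fold. Of the 16 other genes, 14 had a peak, with a median of 0.15, and all 4 genes past 2-fold were among them. At *GRB10* and *INPP5F* the tallest peak did not lie at the DMR, where neither library had a peak. At *PLAGL1* the tallest DMSO peak had its summit 55879 bp from the canonical start, by which both libraries also had a peak. These groups are small and 4 pairs of genes share a tallest peak, so the medians describe the lists and were not compared by a test.

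When overlapping peaks of both libraries were merged, the imprinted genes had 134 regions, of which 49 had a peak in both libraries, 25 in DMSO only and 60 in MAK683 only. The shares called in 1 library, 18.7% in DMSO only and 44.8% in MAK683 only, stand beside 25.1% and 45.9% of all regions. In the 49 shared regions the median log2 ratio was -0.22, with 16 higher, against -0.33 and 23.8% higher over all 57983 shared regions. Regions called in 1 library were low, with at most 15 tags in DMSO only and at most 14 in MAK683 only. The gain of low peaks at imprinted genes was thus near that of the genome, and 34 of the 60 regions in MAK683 only fell on 3 loci, *DLK1*/*MEG3* with 14 of its 15 regions, *GRB10* with 10 of 10, and *H19*/*IGF2* with 10 of 17.

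The CTCF core was found within 150 bp of the summit in 22 of the 134 regions, 16.4%, against 16.3% of all DMSO peaks and 14.6% of all MAK683 peaks. The ZFP57 hexamer was found in 21, 15.7%, against 8.21% and 6.77%. Base composition differed as well, with a median GC content of 57.6% in the windows of the imprinted genes against 51.5% and 50.2%, and what it adds to the share of the hexamer was not tested. Of the 21 regions with the hexamer, 12 were called in both libraries. At *H19*/*IGF2* 5 of 17 regions held it, and at *DLK1*/*MEG3* 1 of 15.

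**Figure D4:**
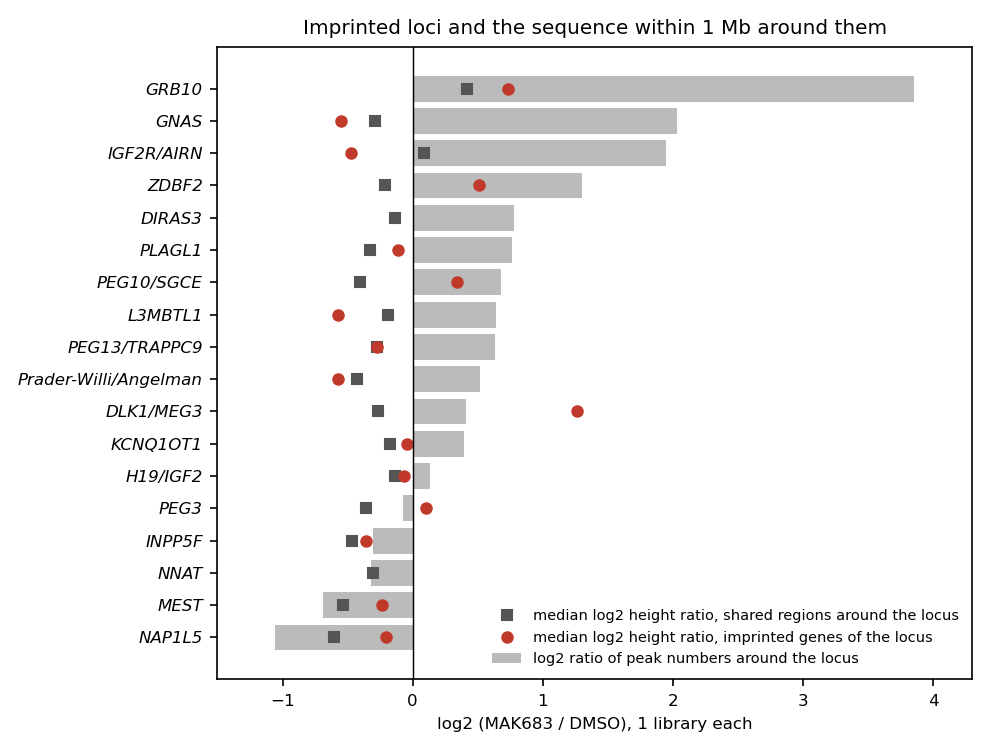
For each of the 18 loci (y axis), the log2 ratio of MAK683 over DMSO (x axis) of the number of peaks within 1 Mb and more than 10 kb from the start sites (bars), of the median height of shared regions there (squares) and of the median height of the imprinted genes (circles, absent where no gene had a peak). At *DLK1*/*MEG3* the genes stood at 1.27 and the regions around them at -0.27, while at *GRB10* both were above 0, the gene only against the lowest called height.

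Over all 18 loci, 960 shared regions in the surrounding sequence had a median log2 ratio of -0.29, close to that of the genome. Peak numbers around the loci moved much more than heights, from a ratio of 0.481 around *NAP1L5*, with 162 peaks in DMSO and 78 in MAK683, and 0.620 around *MEST* to the 14.5 around *GRB10*. Around *ZDBF2* the ratio was 2.47, and over the whole libraries it was 1.41. The part of this regional shift in the values of the imprinted genes was not tested.

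A further list of 43 imprinted genes, outside the 34, had 30 genes with a peak in DMSO and 35 in MAK683, and none in DMSO only. The lists are not independent, as *SNURF*, *MIMT1*, *MESTIT1*, *IGF2-AS* and *INS* share peaks with *SNRPN*, *PEG3*, *MEST* and *IGF2*. The median log2 ratio of the further list was -0.24, with 14 higher, 4 at least 2-fold higher and 1 at least 2-fold lower. The 4 lay beside loci described above: *SLC22A2* and *SLC22A3*, organic cation transporters next to *IGF2R*, *DDC*, the decarboxylase of dopamine synthesis next to *GRB10*, and *DIO3*. *SLC22A2* had no peak in DMSO and 25 tags in MAK683, and *DDC* none and 15 tags, with log2 ratios of 1.92 and 1.18 against the lowest called height. *DIO3* had 9 and 22 tags, a log2 ratio of 1.15 (-0.02 to 2.45), and *SLC22A3* 7 and 17 tags, a log2 ratio of 1.14 (-0.20 to 2.65). *GNAS-AS1*, called in MAK683 only with 12 tags, shares the peak at the upstream *GNAS* start. *ZNF597*, a maternally expressed zinc finger gene, was the one at least 2-fold lower, with 26 and 14 tags and a log2 ratio of -1.03 (-2.08 to -0.04). Intervals also lay below 0 at *OSBPL5*, at -0.82 (-1.64 to -0.03), *COPG2*, at -0.68 (-1.36 to -0.01), and *ZFAT*, at -0.65 (-1.28 to -0.02). No gene of this list had an interval above 0.

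Of 18 genes whose products keep or erase imprints, 14 had a peak, in both libraries each, and 13 of the 14 were lower in MAK683, with a median log2 ratio of -0.59. *UHRF1*, which brings the maintenance methyltransferase to replicated DNA, was the only one past 2-fold, with 22 and 12 tags and a log2 ratio of -1.01 (-2.16 to 0.06). *ARID4A*, a chromatin-binding factor gene, with 64 and 37 tags, had a log2 ratio of -0.93 (-1.55 to -0.32), and its relative *ARID4B*, with 47 and 32 tags, one of -0.69 (-1.39 to -0.01). They were named after their values were seen, as the genes of this list with intervals below 0. *CTCF* had 40 and 29 tags, and *DNMT1*, the maintenance methyltransferase, 22 and 15. *ZFP57*, *DPPA3*, *CTCFL* and *NLRP7* had no peak in either library. Protein-coding genes as a whole had a median of -0.42, with 13291 of 16946 lower.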

How the data were processed

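ATAC-seq of G401 cells was measured in 1 DMSO and 1 MAK683 library, grouped by the treatment label. Per the study's methods, reads were aligned with Bowtie2 to hg19. Per the file headers, peaks were called by the authors per library with MACS 2.1.1.20160309, although MACS2 2.2.7.1 is named in the methods, without control or local background, at a q-value cutoff of 0.05, with tags shifted by -100 bp, extended to 200 bp, read as single ends and kept once per position. Shallow peaks are therefore decided by a few tags.

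The deposited pileup is a signal in whole tags, unscaled. Fold enrichment, as deposited, is a ratio to the background of the library. The −log10 q-value and −log10 p-value deposited with each peak grow with depth. The q-value and the fold enrichment served only in alternatives.

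Tags were scaled per 1000000 tags after filtering. Peaks on chromosomes 1 to 22, X and Y within 3 kb of any TSS were assigned to genes, and the tallest peak per gene and library was used. Log2 ratios have exact conditional (Clopper-Pearson) 95% intervals, which cover counting error only, since there was 1 library per group. Sequence was read from GRCh37. The overlap search and the intervals were tested on simulated data. Python 3.11.15, numpy 2.4.6, pandas 2.3.3, scipy 1.17.1 and matplotlib 3.10.9 were used.

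All 34 genes were named. Given in full were those called in 1 library only, those past 2-fold, those whose interval excluded 0 and the 3 tallest in DMSO. Of the other lists, genes past 2-fold or called in 1 library only were named, at most 6 per list by this rule. Genes with an interval below 0 and genes sharing a peak with the 34 were named besides, after their values were seen. Genes and lists (43 further imprinted genes, 18 genes of imprint maintenance) were chosen with earlier results of these data known. Alternatives were other TSS windows, stricter q-values, other scalings and other counts of shared peaks. Peaks on unplaced sequences were left out.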

Additional observations from a re-analysis of the deposited data

How the results depend on the processing

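With 1 library per group, every value is a difference between these libraries, and depth limits it: the regions of imprinted genes called in 1 library held at most 15 tags, near the lowest called height of 6. No paired analysis was possible because there was 1 library per group and no test. Requiring a −log10 q of at least 10 left 3 genes with a peak in DMSO only (*H19*, *MEST* and *GNAS*) and 2 in MAK683 only (*RTL1* and *MEG8*), with 0 at least 2-fold higher. With at least 5, 2 were at least 2-fold higher, *RTL1* and *MEG8*, which share their MAK683 peak. Neither then had a DMSO peak, so their log2 ratios of 1.29 rest on the lowest called height under that rule. Among genes with a peak in both libraries, without a stricter q-value, 2 were at least 2-fold higher. Without the *DLK1*/*MEG3* locus, an alternative chosen after seeing the data, 2 genes were called in MAK683 only and 1 was at least 2-fold higher. With a window of 1 kb, 1 gene was at least 2-fold lower: *SNRPN*, at 25 tags in DMSO and 11 in MAK683, a log2 ratio of -1.32. That window left 3 genes at least 2-fold higher, as *MEG8* went from 1.45 to 0.60. Without depth scaling, the shared regions around the loci had a median of -0.15, and 16 of the 29 genes were higher in place of 13. That scaling moved the median of all genes from -0.34 to -0.22 and that of the imprinted genes from -0.04 to 0.09, across 0, so that the difference between them was 0.31 in place of 0.30. By fold enrichment 15 were higher and the median was 0.01, also across 0. Apart from these, 88 summary values, the medians just given included, stayed within 1.5 times the count or within the order-statistic range of the median.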
